A study of Mus musculus with 42 samples.

Results

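Stellate and basket cells of the mouse cerebellum were compared between postnatal day 56 (P56) and the pooled ages P28 and P35, across all genes measured. The members are the arrays whose labels give these ages: 2 arrays at P56 (replicates 1 and 3) against 4 at P28 and 2 at P35, 8 of the 42 deposited columns. P56 replicate 2 and P35 replicate 3 were not counted, because every probe set in them holds exactly the average of the remaining 2 columns of that age. All groups came from male CB6-Tg(Gad1-EGFP)G42Zjh/J (G42) mice, a transgenic line in which GABA neurons carry green fluorescent protein under the control of Gad67 (Gad1). Cells were picked by hand from protease-treated cerebellar slices by fluorescence and soma size, and polyadenylated RNA was amplified in 2 rounds and hybridised to Affymetrix MOE430.2 arrays. Purkinje cells, picked from the same line at the same ages (4 arrays at P56 against 8 at P28 and P35), were used to test whether a change differed between the cell types. How many animals or cells went into an array is not given in the sources used here. All levels are log2 expression values, in which a difference of 1 is a 2-fold change. Precision is set by how few arrays there are.

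Stellate and basket cells are the inhibitory interneurons of the molecular layer. They receive parallel fibre input from granule cells through glutamate receptors and release GABA onto Purkinje cell dendrites and somata and onto each other, and their terminals carry the cannabinoid receptor CB1. Purkinje cells are also GABAergic, but they answer to metabotropic glutamate receptor 1 (mGluR1) and calcium stores, and are the output neurons of the cortex. Bergmann glia, the astrocytes of this layer, wrap the synapses and clear glutamate and potassium.

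Interneuron markers were lower in the arrays labelled Stellate/Basket P56 than in the P28 and P35 arrays. The mean of the interneuron markers that could be used here (9 of 10) was 6.19 and 6.17 in P56 replicates 1 and 3, against 8.94 to 9.93 in the 6 P28/P35 arrays, and the groups lay far apart. Each of the 9 had a P56 mean below 7, and in Purkinje P56 arrays the mean of the list was 6.08. The list was chosen with earlier results of these data known. The means of 14 transcription factors of the interneuron lineage were 8.03 and 7.93 in P56 replicates 1 and 3. They were 9.08 to 9.20 at P28/P35 and 6.74 in Purkinje P56 arrays. The mean of the Purkinje cell markers that could be used (11 of 15) was 12.15 and 10.76 at P56, against 9.71 to 10.05 at P28/P35, and each of the 11 was higher in replicate 1 than in replicate 3. The mean of 15 astrocyte and Bergmann glia markers was 10.40 and 10.80, against 9.25 to 10.26. Of the 15, 13 were higher in replicate 3, while 7451 of all 17478 genes were higher in replicate 1. Gad1, the GABA-synthesising enzyme whose gene drives the reporter, stood at 12.52 and 11.47 at P56, against 12.48 to 12.91 at P28/P35, so replicate 1 fell inside the earlier range and replicate 3 below it. The part of Purkinje cell or glial RNA in the results below was not tested, nor was an exchange or mixing of samples, and Stellate/Basket P56 names these arrays by their label. In bulk samples of this kind, fewer cells of a type and less RNA per cell cannot be told apart.

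**Figure D1:**
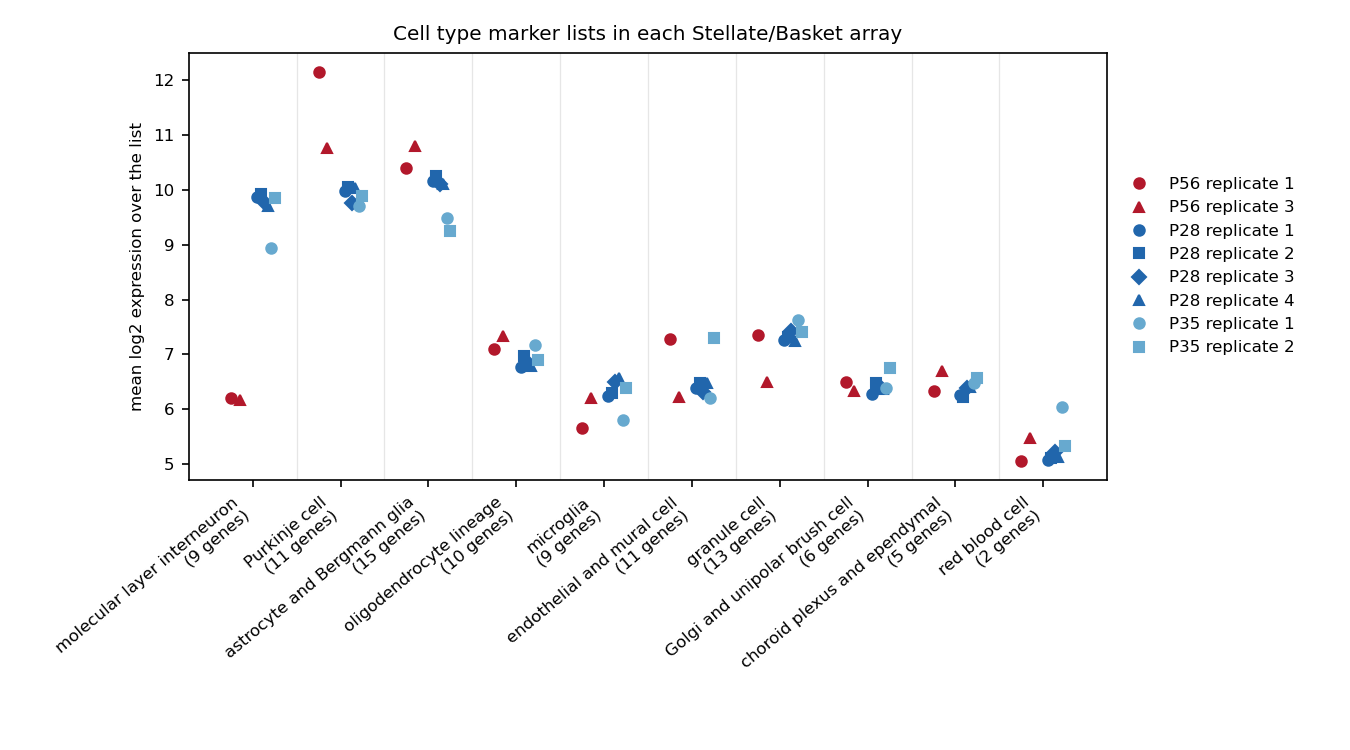
Mean log2 expression of each cell type marker list in the 8 Stellate/Basket arrays, with the P56 arrays (red) left of the P28 (dark blue) and P35 (light blue) arrays. Interneuron markers lie at 6.19 and 6.17 at P56, against 8.94 to 9.93 at P28/P35, while Purkinje cell markers lie at 12.15 and 10.76, against 9.71 to 10.05.

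The 2 P56 arrays also stood apart from each other. Across 17478 genes, which are not independent replicates, they correlated at r = 0.853, while pairs of the P28/P35 arrays correlated at 0.941 to 0.973. A log2 difference of at least 1 separated P56 replicates 1 and 3 at 3585 genes (20.5%), against 1273 genes (7.28%) between the P35 arrays and 692 (3.96%) between P28 replicates 1 and 2. Replicate 1 correlated at 0.907 with the mean of Purkinje P28/P35 arrays and at 0.900 with that of Stellate/Basket P28/P35 arrays, and replicate 3 at 0.801 and 0.836. With the mean of Purkinje P56 arrays replicate 1 correlated at 0.896 and replicate 3 at 0.760. The 90th percentile of the log2 values was 9.14 and 8.55 in P56 replicates 1 and 3, against 8.89 to 9.07 in the P28/P35 arrays. Xist, the RNA that coats an inactive X chromosome, was at 11.42 and 11.79 at P56 and between 12.29 and 12.54 in 5 of the 6 P28/P35 arrays, against 7.55 in P35 replicate 2, although all are labelled male. Of the Y-linked genes, Eif2s3y was at 7.92 and 4.41 at P56, against 4.39 to 7.69 at P28/P35, and Kdm5d and Uty differed by 0.03 and 0.19, none of which passed the test. The results are therefore given with each P56 array's own value.

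**Figure D2:**
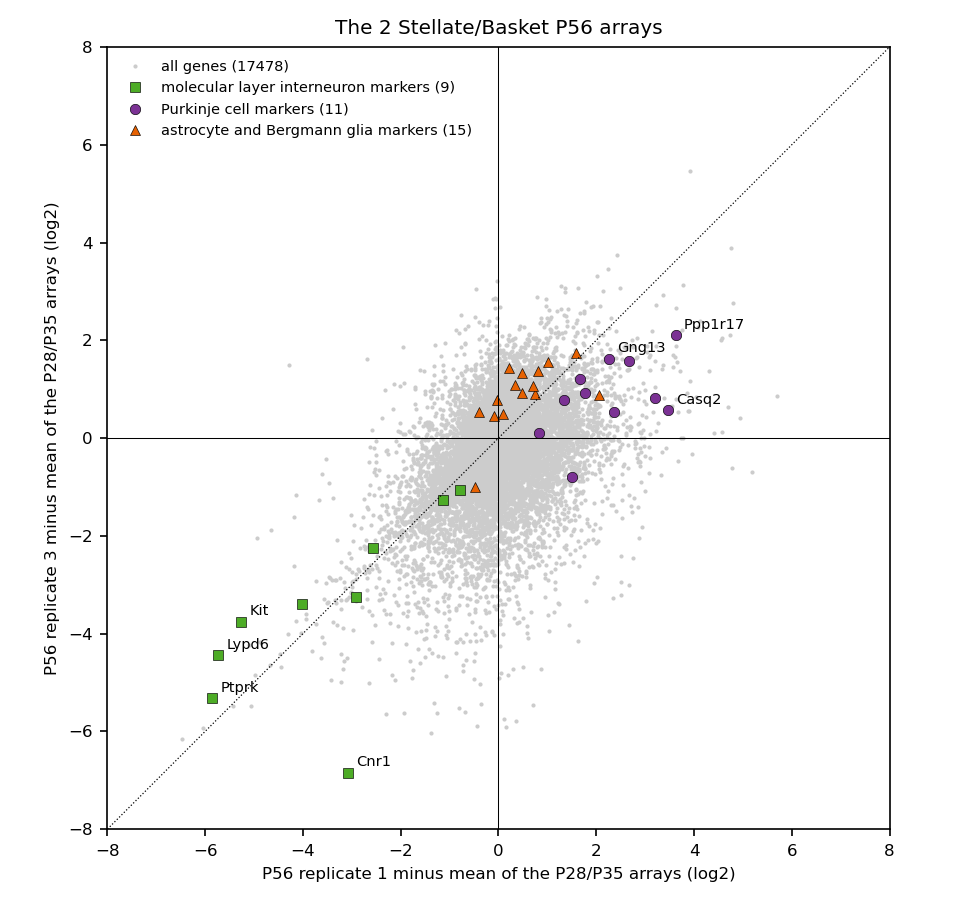
Log2 difference from the mean of the 6 P28/P35 arrays in P56 replicate 1 (x axis) and P56 replicate 3 (y axis), 1 point per gene, with 3 marker lists coloured and a dotted line where both arrays are equal. Interneuron markers are low in both arrays, Purkinje cell markers lie below the line (higher in replicate 1), and 13 of 15 glial markers lie above it.

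In all, 2295 of 17478 genes (13.1%) were called in Stellate/Basket P56 against P28/P35, at an adjusted p under 0.05 and a log2 difference of at least 1. Of these, 788 (4.51% of genes tested) were higher at P56 and 1507 (8.62%) lower. Both P56 arrays lay above all 6 P28/P35 arrays at 2623 genes (15%) and below all of them at 2278 (13%), and 615 (3.52%) of the higher and 1127 (6.45%) of the lower calls were of this kind. The median difference of all genes was 0.04. These counts depended on the spread allowed to the P56 arrays. So does each SE and adjusted p below, which uses a spread pooled over 12 groups and does not measure the distance between the P56 arrays. With array weights, which gave each P56 array a weight of 0.177, 146 genes were called higher and 395 lower. Fits with 1 P56 array take its spread wholly from the other groups, so their calls do not allow for the distance between the P56 arrays. With P56 replicate 1 alone 1281 were higher and 1060 lower, and with replicate 3 alone 1074 and 2307. Among the genes reported, 269 higher and 661 lower calls also held with each P56 array alone, while 97 genes that replicate 1 alone called higher were called lower by replicate 3 alone, and 16 the other way round. Of 122 called genes chosen for naming, 59 lost their call with array weights, 40 in the 8 arrays alone, 28 with the probe sets of a gene averaged, 22 without replicate 1 and 31 without replicate 3.

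The largest fall at P56 was that of Prdm8. Prdm8 (1455925_at), a zinc finger transcriptional regulator, had 4.98 and 5.30 in the P56 arrays, against a lowest, median and highest value of 10.86, 11.50 and 11.82 in the P28/P35 arrays. It was 79.2-fold lower at P56 (log2 -6.31 ± 0.17, SE; adjusted p = 6.42e-23). Both P56 values lay more than 5 log2 units under every earlier array, near the level of Purkinje P56 arrays (5.15 to 5.70). Grik3 (1440177_at), a kainate receptor subunit, was at 4.45 and 4.55, against 9.58, 10.63 and 10.81 (log2 -5.99 ± 0.29; adjusted p = 9.17e-16). Its other probe set did not fall (0.43). Cnr1 (1434172_at), the cannabinoid receptor CB1, was at 8.83 and 5.07, against 11.43, 11.97 and 12.17 (-4.97 ± 0.47). The P56 arrays differed from each other at Cnr1 by more than 3 log2 units, yet both lay below all P28/P35 arrays. Kit (1452514_a_at), a receptor tyrosine kinase that marks these interneurons, was at 5.35 and 6.86, against 9.77, 10.76 and 10.87 (-4.51 ± 0.29; adjusted p = 4.78e-13).

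Ptprk, Sgk1, Sla and Lypd6 were further leading falls. Ptprk, a receptor-type tyrosine phosphatase, was at 5.68 and 6.22 at P56, against 10.88, 11.66 and 12.04 at P28/P35 (-5.59 ± 0.27). Sgk1, a kinase induced by glucocorticoids, was at 6.75 and 6.33, against 11.52, 11.79 and 12.09 (-5.27 ± 0.32). Both P56 values of Sgk1 also lay below those of the Purkinje P56 arrays (8.50 to 9.62). Sla, an adaptor of tyrosine kinase signalling, was at 5.75 and 5.69, against 9.96 to 11.63, a difference of -5.45. Lypd6, a membrane-anchored modulator of nicotinic receptors, differed by -5.09 ± 0.63, with 4.80 and 6.09, against 10.29 to 10.76.

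Tnr, Synpr and Lin7a also fell. Tnr, which encodes the matrix protein tenascin-R of perineuronal nets, was at 4.30 and 4.33 at P56, against 8.48, 8.95 and 9.42 at P28/P35 (-4.66 ± 0.30). Synpr, the vesicle protein synaptoporin, was at 4.39 and 4.45, against 6.66, 9.26 and 9.80 (-4.44 ± 0.34), and its lowest earlier value, in P35 replicate 1, was still more than 2 units above P56. Lin7a, a scaffold of synaptic and junctional complexes, was at 7.75 and 6.23, against 10.88 to 11.29 (-4.19). The remaining leading genes, Tmem178, Rufy2, the histone gene H2bc21 and Btbd11, differed by -4.91, -4.67, -4.57 and -4.53. All 15 leading lower genes were called under each of the 25 alternatives computed, array weights and each P56 array alone included. Those 25 did not include the stricter thresholds. All 15 had been higher in Stellate/Basket than in Purkinje cells at P14/P21. The size of a fall depended on the probe set. The least changed probe sets of Ptprk, Sla, Kit, Cnr1 and H2bc21 differed by -0.06, -0.24, -0.33, -0.59 and -0.59, and a probe set of Rufy2 by 0.34. Those of Lypd6, Btbd11 and Lin7a still differed by -1.73, -2.63 and -3.31.

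**Figure D3:**
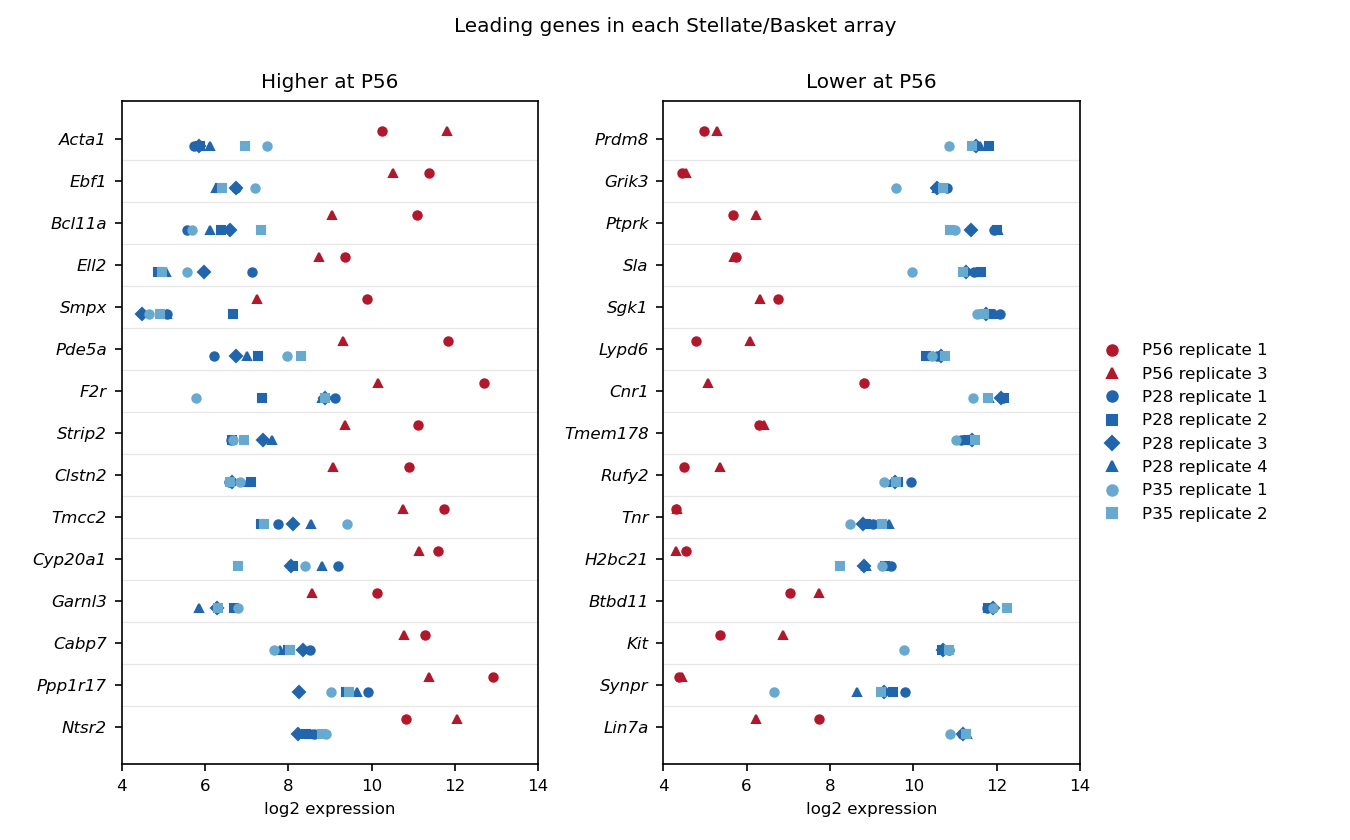
Log2 expression of the 15 leading genes higher (left) and lower (right) at P56 in each Stellate/Basket array, with the P56 arrays (red) drawn above the P28/P35 arrays (blue) in each row. In every row both red points lie outside the range of the blue points, and replicate 1 (red circle) is above replicate 3 in 13 of the 15 rows on the left, with Acta1 and Ntsr2 the other way round.

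The largest rise was that of Acta1 (1427735_a_at), which encodes the actin of skeletal muscle. It had 10.26 and 11.82 at P56, against 5.74, 6.01 and 7.49 at P28/P35, and was 25.8-fold higher (4.69 ± 0.28; adjusted p = 6.04e-14). Its Purkinje P56 values were 5.56 to 5.85, far below both Stellate/Basket P56 arrays, and of these replicate 3 was the higher. Both P35 arrays, at 7.49 and 6.97, lay above all 4 P28 arrays. Ntsr2, a neurotensin receptor known from astrocytes, showed the same order of the P56 arrays, with 10.83 and 12.05, against 8.24, 8.59 and 8.90 (2.85 ± 0.25; adjusted p = 4.38e-10). Tmcc2, a membrane protein, was at 11.74 and 10.76, against 7.35 to 9.42 (3.15 ± 0.43), and Cyp20a1, a member of the cytochrome P450 family, at 11.58 and 11.15, against 6.79 to 9.20 (3.14 ± 0.41). These 4 genes had not been called between the cell types at P14/P21.

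The other 11 leading genes higher at P56 had all been higher in Purkinje than in Stellate/Basket cells at P14/P21, by log2 2.72 to 5.91. Ebf1 (1416301_a_at), a helix-loop-helix transcription factor, was at 11.39 and 10.51 at P56, against 6.26, 6.59 and 7.21 at P28/P35 (4.33 ± 0.45; adjusted p = 1.52e-08). The Purkinje P56 arrays lay between 10.29 and 11.32, a range that held replicate 3 and lay just under replicate 1. Bcl11a, a zinc finger transcription factor, was at 11.08 and 9.05, against 5.58 to 7.35 (3.77 ± 0.44). Pde5a, the phosphodiesterase that breaks down cyclic GMP, was at 11.83 and 9.31, against 6.22 to 8.30 (3.31 ± 0.32). Replicate 1 was higher than replicate 3 at each of these, and by more than 2 units at Bcl11a and Pde5a. F2r, the thrombin receptor, was at 12.69 and 10.15, against 5.80 to 9.11 (3.28 ± 0.82; adjusted p = 0.00269), and lost its call without replicate 1 (2.01) and with array weights. Ell2, a transcription elongation factor (3.45), Smpx (3.42), Strip2 (3.26) and Clstn2, a calsyntenin of synapses (3.18), also belonged to the group. Garnl3 (2.97), the calcium-binding protein gene Cabp7 (2.97) and Ppp1r17 completed it. The least changed probe sets of Bcl11a, Ell2, Cabp7, Clstn2, Pde5a and Ebf1 differed by 0.003, 0.03, 0.45, 0.57, 0.80 and 0.89, while that of F2r differed by 2.95.

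The promoters of the called genes were searched for 5 motifs, as a description. RefSeq gives a window for 13884 of the genes tested, 634 of the 788 higher and 1208 of the 1507 lower, and the 250 bases before the start site were read on both strands. The cyclic AMP response element, TGACGTCA, occurred in 3.31% of the windows of genes higher at P56, in 2.65% of those lower and in 2.30% of all windows. The AP-2 motif GCCNNNGGC occurred in 21.9%, 21.5% and 18.7% in the same order. The EBF motif (TCCC and GGGA, 2 bases apart) occurred in 0.946%, 0.993% and 0.907%. For MEF2 a loose form was read, CTA and TAG with any 4 bases between, not only A or T. It occurred in 1.89%, 3.15% and 2.85%. The NFI motif (TTGGC and GCCAA, 5 bases apart) occurred in 1 window of the genes higher and 0 of the genes lower, with 6 in all. The shares of called genes lay near those of all windows, and no test was made. Among the leading genes, the full cyclic AMP element stood before Ell2 and Clstn2, both higher at P56, and the EBF motif before Sgk1, which was lower. The loose MEF2 form stood before Smpx, which was higher, and Tnr, which was lower. In both, the 4 bases between were not all A or T, so neither is a full MEF2 motif. The AP-2 motif stood before F2r, Strip2 and Tmcc2, which were higher, and Rufy2 and Kit, which were lower. The 5 stretches of 60 bases (RefSeq, GRCm38.p6) that hold the 3 motifs other than AP-2 have the matched stretch in capitals, for MEF2 the loose form:
Ell2 (chr13:75707266-75707325, + strand): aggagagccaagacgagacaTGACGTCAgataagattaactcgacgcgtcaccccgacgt
Clstn2 (chr9:98033213-98033272, - strand): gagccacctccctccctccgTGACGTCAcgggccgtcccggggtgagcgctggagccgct
Smpx (chrX:157698827-157698886, + strand): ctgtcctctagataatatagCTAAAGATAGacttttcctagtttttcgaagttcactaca
Sgk1 (chr10:21881953-21882012, + strand): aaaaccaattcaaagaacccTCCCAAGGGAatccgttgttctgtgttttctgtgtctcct
Tnr (chr1:159523695-159523754, + strand): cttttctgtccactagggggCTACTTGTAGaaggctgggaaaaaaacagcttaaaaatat
A match of letters is a description and not a binding site.

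The interneuron markers had a median difference of -3.71, against 0.04 for all genes. Of them, 7 of 9 were lower at P56 and none was higher, beside 8.62% and 4.51% of all genes. Beside Ptprk, Lypd6, Cnr1 and Kit these were Sorcs3, a sorting receptor, Tfap2b, a transcription factor of the inhibitory lineage, and Gjd2, which forms the electrical synapses of these cells. Sorcs3 was at 6.33 and 6.95 at P56, against 9.81, 10.33 and 10.80 at P28/P35 (-3.71 ± 0.29). Tfap2b was at 6.54 and 6.21, against 8.61, 9.59 and 9.78 (-3.09 ± 0.35). Gjd2 was at 5.68 and 6.0, against 6.74 to 8.85 (-2.41 ± 0.35), and was not called with array weights. Nxph1 and Prkcd differed by -0.92 and -1.20 and did not pass the test (adjusted p = 0.178 and 0.0979). With either P56 array alone 7 of the 9 were called lower. None of the 9 was called in Purkinje cells between the same ages (median 0.11).

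Purkinje cell markers were higher in 7 of 11 cases and lower in none (median 1.45), beside 4.51% and 8.62% of all genes. Ppp1r17, a phosphatase inhibitor, was at 12.91 and 11.38 at P56, against 8.27, 9.43 and 9.90 at P28/P35 (2.86 ± 0.52; adjusted p = 9.65e-05), and its Purkinje P56 arrays were at 13.07 to 13.10. Replicate 1 came within 0.2 of that level and replicate 3 did not. Casq2, a calcium store protein, was at 9.97 and 7.08, against 5.93 to 6.85, and Slc1a6, the Purkinje cell glutamate transporter, at 12.02 and 9.63, against 8.35 to 9.12. Gng13, a G protein subunit, was at 13.34 and 12.70, against 10.80 to 11.68, and Pcp2, a regulator of G proteins, at 13.79 and 13.35, against 11.77 to 12.73. The differences of these 4 genes were 2.02, 2.01, 1.94 and 1.44. Rgs8 (1.34) and Homer3 (1.45) were also higher, while Calb1, the calcium buffer calbindin, at 13.24 and 12.13 against 9.23 to 11.09, did not pass the test (2.12 ± 1.0; adjusted p = 0.106). With replicate 1 alone 7 of the 11 were called higher and with replicate 3 alone 2. Without replicate 1 the differences of Casq2, Slc1a6, Pcp2, Rgs8 and Homer3 were 0.58, 0.82, 1.22, 0.92 and 0.54 and were not called. Pcp2 was not called without replicate 3 either (1.66). Array weights removed the calls of Ppp1r17, Slc1a6, Gng13, Pcp2, Rgs8 and Homer3. In the 8 arrays alone Casq2, Slc1a6 and Homer3 lost theirs. Car8, Pcp4 and Foxp2 differed by 1.06, 0.47 and 0.36 and did not pass the test. Calb1 and Car8 were called with averaged probe sets (2.53 and 1.67) and in the 8 arrays alone.

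Astrocyte and Bergmann glia markers were higher in 4 of 15 cases and lower in none (median 0.82), beside 4.51% and 8.62% of all genes. Of the 15, 14 lay above 0, beside 9352 of all 17478 genes. Gjb6, a connexin of astrocytes, was at 7.26 and 7.79 at P56, against 5.25, 6.58 and 6.77 at P28/P35 (1.29 ± 0.14; adjusted p = 3.33e-08). The water channel gene Aqp4 was at 11.73 and 11.89, against 9.10 to 10.62 (1.66 ± 0.55), the glutamate transporter gene Slc1a2 at 12.27 and 12.84, against 10.69 to 11.89 (1.09 ± 0.41), and Fgfr3 differed by 1.47 ± 0.27. These 3 lost their calls with array weights and with averaged probe sets (0.98, 0.64 and 0.88), and without replicate 1 Aqp4 (1.74) and Fgfr3 (0.88) were not called, nor were Slc1a2 (0.81) and Aqp4 (1.58) without replicate 3. Gja1, Slc1a3 and Timp4 were high at both ages, at 12.59 and 13.04, 12.46 and 12.62, and 12.97 and 13.33 in the P56 arrays, against medians of 12.34, 11.74 and 12.36 at P28/P35, and did not pass the test. Fabp7, the lipid-binding protein of radial and Bergmann glia, was the 1 member below 0 (-0.75; adjusted p = 0.151). Gdf10, Slc4a4, Aldh1l1, S100b, Sox9, Hopx and Gfap differed by 0.91, 0.82, 0.71, 0.38, 0.29, 0.18 and 0.07 and did not pass the test. In the P35 arrays the glial list was at its lowest (means 9.49 and 9.25), as the plot of marker lists shows. The P28 means were 10.10 to 10.26, nearer to the P56 means of 10.40 and 10.80. With P28 alone as the earlier age Gjb6 (0.88), Aqp4 (1.30) and Slc1a2 were not called, while Fgfr3 kept its call.

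Counts of other cell type markers are to be read against the 13.1% of all genes called. Of 9 microglia markers only the protease gene Ctss was called, lower at P56, with 5.19 and 5.26 against 5.28, 7.98 and 8.77 at P28/P35 (-2.44 ± 0.31). Of 11 endothelial and mural markers only Tek, an angiopoietin receptor, was called (1.16), and it was high in replicate 1 alone (7.97 and 5.31 at P56, against 5.32 to 5.62; -0.17 without replicate 1). Of 13 granule cell markers 2 were lower. They were the transcription factor gene Neurod1, at 8.53 and 5.55 against 10.10 to 10.75 (-3.24 ± 0.38), and Mab21l1 (-2.08). Both had also been higher in Stellate/Basket than in Purkinje cells at P14/P21. None of 10 oligodendrocyte, 6 Golgi and unipolar brush cell, 5 choroid plexus and ependymal and 2 red blood cell markers was called.

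Genes of inhibitory transmission were called in both directions. Counts of this and the following lists stand beside 4.51% of all genes called higher and 8.62% called lower. Of 6 genes for GABA synthesis, packaging and uptake 3 were lower and none higher (median -1.03). Slc32a1, which loads GABA into vesicles, was at 11.90 and 8.57 at P56, against 12.43, 12.59 and 12.66 at P28/P35 (-2.34 ± 0.37), and without replicate 3 the call was lost (-0.67). Of its 4 probe sets 1 fell and the others differed by up to 0.89, and their average was not called (-0.25). Gad2, the second GABA-synthesising enzyme, was at 7.88 and 7.65, against 8.66 to 9.19 (-1.17 ± 0.20), and Abat, which degrades GABA, differed by -1.07 (-0.87 without replicate 1 and -0.40 with averaged probe sets, not called). Gad1 differed by -0.74 ± 0.15, under the size needed for a call. Among 9 GABA-A receptor subunits 2 were higher, Gabra2 (8.59 and 9.48, against 5.58 to 8.01; 2.12 ± 0.42) and Gabra4 (1.20; 0.88 with averaged probe sets, not called), and 2 lower, Gabrd (-1.01, and -0.79 without replicate 1 and -0.42 with averaged probe sets, not called) and Gabrb2. Gabrb2 was at 11.14 in replicate 1, inside the earlier range of 10.94 to 11.35, and at 6.21 in replicate 3 (-2.45), and without replicate 3 its difference was 0.02. The glycine receptor subunit gene Glrb followed the same pattern, with 10.44 and 8.02 against 10.45 to 10.95 (-1.37, and -0.16 without replicate 3).

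Among 14 ionotropic glutamate receptor genes 2 were higher and 3 lower, beside 4.51% and 8.62% of all genes. Grid1, a delta receptor subunit that organises synapses, was at 5.61 and 6.42 at P56, against 8.84, 9.23 and 9.99 at P28/P35 (-3.32 ± 0.28; adjusted p = 1.73e-10). At this probe set Grid1 lay below all earlier arrays in both replicates, as Grik3 did, while its other probe set differed by 0.11. The kainate receptor subunit Grik1 rested on replicate 1, at 9.97 and 5.44 against 4.71 to 5.47 (2.67, and 0.41 without replicate 1), and the AMPA receptor subunit Gria2 on replicate 3, at 10.79 and 4.72 against 9.95 to 11.03 (-2.87, and 0.16 without replicate 3). Genes of mGluR1 and calcium store signalling were higher in 5 of 12 cases and lower in none (median 0.96). All 12 were higher in replicate 1 than in replicate 3, beside 7451 of all 17478 genes. Itpka, a kinase of inositol trisphosphate, was at 10.86 and 9.0, against 7.10 to 7.57 (2.63 ± 0.43), and Inpp5a, an inositol phosphatase, at 12.50 and 11.60, against 9.73 to 10.34 (2.07 ± 0.23; adjusted p = 4.54e-08). Ryr1, a calcium release channel, and Atp2a3, a calcium pump, differed by 2.39 and 1.58 and lost their calls without replicate 1 (0.92 and 0.30).

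Ion channel genes moved both ways, where 4.51% of all genes were called higher and 8.62% lower. Of 8 sodium channel genes Scn2a was lower (8.46 and 6.60 at P56, against 9.55 to 10.33 at P28/P35; -2.54 ± 0.38), as was Scn3b (-1.17), and Scn4b, the subunit of resurgent current, was higher (9.87 and 8.67, against 7.10 to 8.12; 1.88 ± 0.32). The list median was -0.82 over both arrays, 0.87 in replicate 1 and -1.72 in replicate 3. Of 13 calcium channel genes 3 were lower and 1 higher. Cacna2d3, an auxiliary subunit, was at 7.21 and 6.51, against 10.04 to 10.60 (-3.53 ± 0.32), Cacna1d at 6.76 and 7.10, against 8.82 to 10.14 (-2.48 ± 0.19), and the R-type subunit Cacna1e differed by -2.19. Among 21 potassium and HCN channel genes 6 were higher and 5 lower. Kcnd3 and Kcnc4, of the A-type and fast families, were at -2.85 and -2.07, and the leak channel Kcnk1 at -2.51 (-0.86 without replicate 3, not called). The auxiliary subunit Kcnab1 was at 2.21 and lost its call without replicate 1 (0.80). With averaged probe sets Kcnd3 (-0.98), Kcnc4 (-0.97), Cacna1e (-0.94) and Scn3b (-0.34) were not called. The other probe set of Cacna1d differed by 0.39.

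Synaptic vesicle genes were lower in 6 of 18 cases and higher in 1 (median -0.56), beside 8.62% and 4.51% of all genes. Synaptic adhesion genes were lower in 5 of 13 and higher in none (median -0.47). The synapsin gene Syn2 was at 9.44 and 9.11 at P56, against 10.72, 10.84 and 11.27 at P28/P35 (-1.65 ± 0.21; adjusted p = 4.52e-07), and Syn3 differed by -2.14. Sv2a and Snap25, of vesicles and of the fusion machinery, differed by -2.01 and -1.73 and lost their calls without replicate 3 (-0.80 and -0.68). Cadm1, a cell adhesion molecule of synapses, was at 8.26 and 7.26, against 9.36 to 10.39 (-2.22 ± 0.43). The neuroligin gene Nlgn1 (-1.53) and the neurexin gene Nrxn3 (-1.49) were lower in both arrays, and the contactin gene Cntn4 (-2.03) lost its call without replicate 3 (-0.64). With averaged probe sets Syn3 (-0.96), Nlgn1 (-0.66) and Nrxn3 (-0.90) were not called. Of the 18 vesicle genes, which neurons of all kinds use, 14 were higher in replicate 1 than in replicate 3. So were 7451 of all 17478 genes.

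Genes of growing neurites were lower in 5 of 18 cases and higher in none (median -0.52), beside 8.62% and 4.51% of all genes. Gap43, the growth cone protein, was at 5.75 and 5.55 at P56, against 8.54, 8.86 and 9.21 at P28/P35 (-3.20 ± 0.20; adjusted p = 1.29e-13). Cd24a, a surface glycoprotein of immature neurons, was at 4.96 and 4.59, against 6.94, 7.79 and 10.20 (-3.58 ± 0.49). Dpysl3 (-1.97) and Crmp1 (-1.41), cytoskeletal proteins of outgrowing axons, lost their calls without replicate 3 (-1.21 and -0.58). Among 39 axon guidance genes 7 were lower and 3 higher (25.6% called, against 13.1% of all genes; median 0.14). Sema3e, a secreted semaphorin, was at 6.58 and 6.88, against 10.59 to 11.30 (-4.16 ± 0.44). The netrin gene Ntn1 was at 5.47 and 6.04, against 8.43 to 9.25 (-3.24 ± 0.32). Each also had a probe set that did not fall (0.16 and 0.50). The semaphorin receptor genes Plxna2 (-2.03) and Plxnc1 (-1.96) were lower, and neither they (-0.45 and -0.32) nor Dpysl3 (-0.64) were called with averaged probe sets.

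Of 14 transcription factors of the interneuron lineage 4 were lower and none higher (median -0.60), beside 8.62% and 4.51% of all genes. Beside Prdm8 and Tfap2b these were Tfap2a (8.03 and 6.48 at P56, against 8.78 to 10.11 at P28/P35; -2.18 ± 0.33) and Tcf4 (9.38 and 9.59, against 10.84 to 11.24; -1.53 ± 0.39). In the matrix list, 3 of 13 were lower and 2 higher. Tenascin-C, Tnc, an extracellular matrix protein that astrocytes make, rose where tenascin-R fell, with 9.21 and 9.19 at P56, against 6.56, 6.85 and 7.54 at P28/P35 (2.26 ± 0.24; adjusted p = 2.74e-08). The proteoglycan genes Bcan and Vcan differed by 1.22 and -1.07, neither called with averaged probe sets (0.95 and -0.25), nor Vcan without replicate 1 (-0.57). Id2, a partner of helix-loop-helix factors, was the 1 called of 21 Notch, hedgehog and BMP genes (12.34 and 10.62, against 9.06 to 9.98; 1.89 ± 0.31). That is 4.76% of the list, below the 13.1% of all genes called.

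Genes of energy supply were unequal between the P56 arrays. Of 28 oxidative phosphorylation genes 5 were lower and none higher (median -0.28), beside 8.62% and 4.51% of all genes. The list median was -0.04 in replicate 1 and -0.56 in replicate 3, where those of all genes were -0.007 and 0.05. Uqcrc2, a core protein of complex III, was the exception among its named members, with 11.30 and 10.94 at P56, against 12.16, 12.31 and 12.42 at P28/P35 (-1.19 ± 0.10; adjusted p = 1.17e-10), called with either array. Ndufa10, Cyc1 and Ndufv1, at -1.66, -1.16 and -1.15, lost their calls without replicate 3 (-0.27, -0.72 and -0.22). Of 20 genes of glycogen, lactate and glycolysis 2 were higher and 3 lower. Hk2, a hexokinase, was at 9.73 and 9.72, against 6.87 to 8.51 (1.70 ± 0.31), and Pfkp, a phosphofructokinase, at 8.48 and 7.67, against 8.97 to 10.68 (-2.15 ± 0.29). With averaged probe sets Pfkp (-0.78) and Ndufa10 (-0.98) were not called. Aldoc, the aldolase of astrocytes and of Purkinje cell stripes, was higher by 1.09 and was not called without replicate 1 (1.01) or without replicate 3 (1.18). Of the clock genes, 2 of 17 (11.8%) were lower and none higher, near the 13.1% of all genes called and the 8.62% called lower. Among them was Clock itself, at 8.28 and 7.75, against 9.97 to 10.46 (-2.23 ± 0.20; adjusted p = 1.10e-09).

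The remaining lists held 0 to 2 calls each, with 13.1% of all genes called. Of 9 genes for glutamate and potassium clearance by glia 2 were higher, Aqp4 and Slc1a2, both also on the glial marker list (median 0.81). Neither was called with P28 alone as the earlier age. Of 5 neurofilament genes Nefh was higher (1.66, and 1.01 without replicate 1, not called), and of 11 MHC class I and interferon genes B2m (8.99 and 10.08 at P56, against 7.84 to 8.52 at P28/P35; 1.31, and 0.77 without replicate 3, not called) and Ifit1 (1.12, and -0.02 without replicate 1). Cholesterol synthesis had Mvk (1.09) and Idi1 (1.01) higher among 15 genes, neither called without replicate 3 (0.70 and 0.76). Lipid handling had Abca1 (1.01, and 0.79 without replicate 1, not called) among 10. Ribosomal proteins had Rpl14 (1.84) higher and Rps6 (-1.33, and -1.07 without replicate 3, not called) lower among 17. Cell cycle genes had Mcm3 (1.16) higher and Pcna (-1.21) lower among 16, neither called without replicate 3 (0.68 and -1.13). Of 16 chaperone and 16 immediate early genes 1 each was lower, Hspa1b (-1.55) and Ier2 (-1.68), and without replicate 3 neither was called (-0.20 and -0.14). With averaged probe sets Mvk (0.77), Idi1 (0.79), Abca1 (0.48), Rps6 (-0.63) and Mcm3 (0.56) were not called. None of 3 metallothioneins and 6 thyroid hormone response genes was called.

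**Figure D4:**
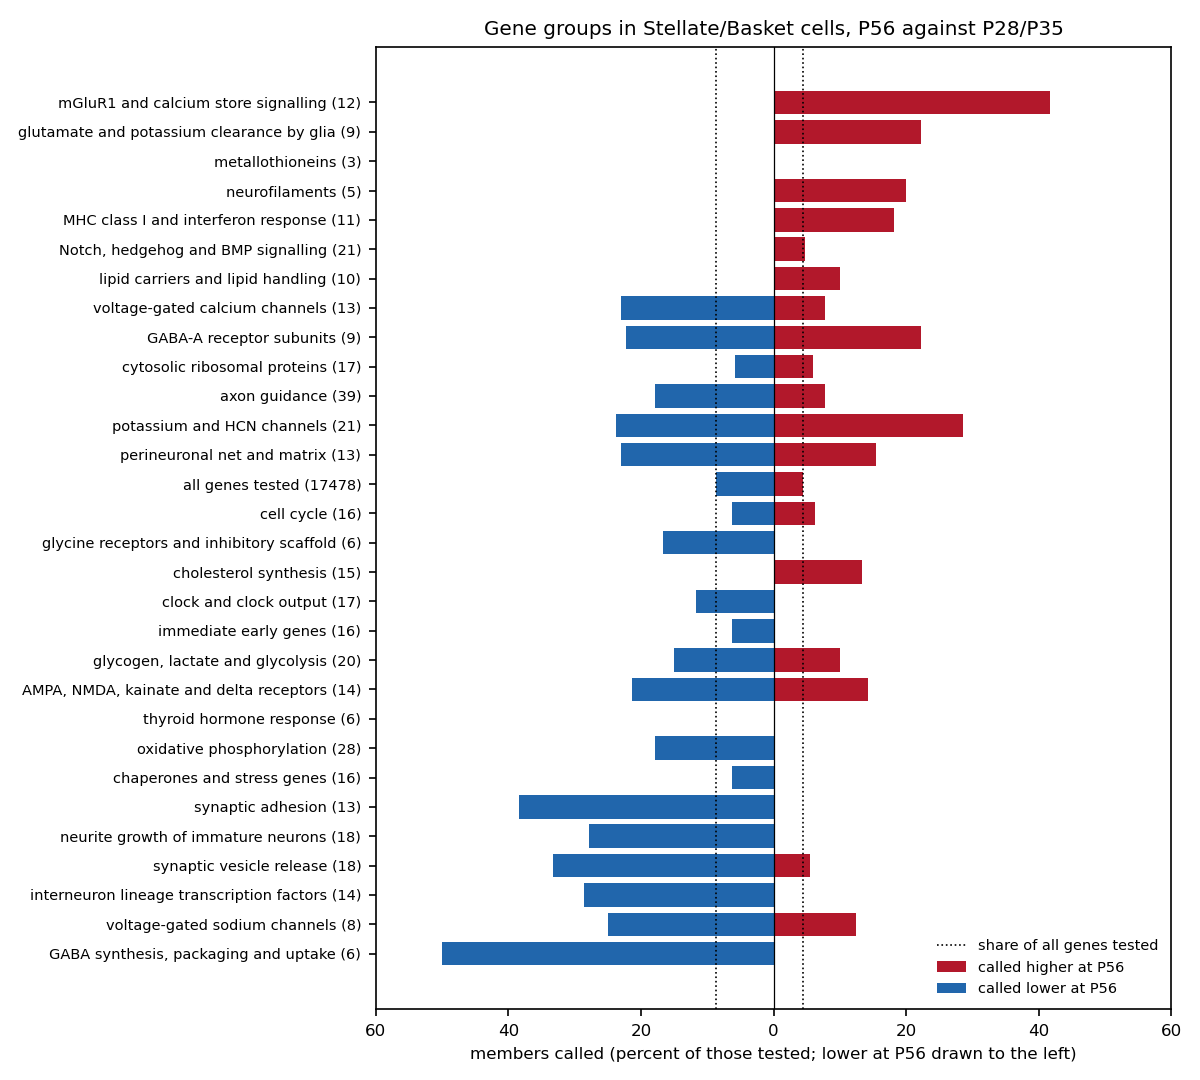
Share of the tested members of each functional list that were called higher (red, to the right) or lower (blue, to the left) in Stellate/Basket P56 against P28/P35 arrays, ordered by the list's median difference, with the number tested in brackets. Dotted lines give the shares of all genes (4.51% higher and 8.62% lower), and small lists rest on few genes.

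Within the earlier ages, P35 differed from P28 at 234 genes (1.34%), of which 73 were higher (0.418%) and 161 lower (0.921%) at P35. Cd24a was at 10.20 and 9.82 at P35, against 7.84, 7.73, 7.62 and 6.94 at P28 (2.48 ± 0.52; adjusted p = 0.00843), and so was highest at P35 and lowest at P56. Trhde, which degrades thyrotropin-releasing hormone, was at 6.94 and 6.33, against 4.45, 4.42, 4.5 and 4.51 (2.17 ± 0.26; adjusted p = 2.54e-05), and was at 4.54 and 4.49 in the P56 arrays. Dus2, a tRNA-modifying enzyme, Lypd6b and Lrp1b, a lipoprotein receptor, were higher at P35 by 2.22, 1.85 and 1.83. Cyp4v3, a fatty acid hydroxylase, was at 5.42 and 5.58 at P35, against 8.78, 9.41, 8.23 and 8.73 at P28 (-3.29 ± 0.41; adjusted p = 2.57e-05), and at 9.10 and 10.33 at P56. The zinc transporter gene Slc39a12 (-2.25) and the bicarbonate transporter gene Slc4a4 (-2.15) were lower at P35, as were Atad2b (-3.06) and Fam102b (-2.14). With averaged probe sets Lrp1b (0.59), Atad2b (-1.36) and Slc4a4 (-0.50) were not called. Slc4a4 is on the glial list, whose mean was 9.49 and 9.25 in the P35 arrays, against 10.10 to 10.26 in the P28 arrays, and the part of glial RNA in these falls was not tested.

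In Purkinje cells the same ages differed at 457 genes (2.61%), 372 higher (2.13%) and 85 lower (0.486%) at P56. The difference between the 2 changes, Stellate/Basket minus Purkinje, was called at 3462 genes (19.8%), 1270 higher (7.27%) and 2192 lower (12.5%). It compares the arrays by their labels. Prdm8 led with -6.56 ± 0.21 (adjusted p = 1.69e-20), as its Purkinje change was 0.25. Grik3, Sgk1, Sla, Lypd6 and Ptprk followed at -5.89, -5.75, -5.58, -5.50 and -5.35. On the other side, Acta1 (4.69 ± 0.35), Ebf1 (4.19) and Bcl11a (3.68) had Purkinje changes of 0.00, 0.14 and 0.09.

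Another 2 leading genes, Slc1a4 and Stk32a, were called in opposite directions in the arrays labelled Stellate/Basket and Purkinje. Slc1a4, a transporter of neutral amino acids, was at 9.09 and 9.51 in Stellate/Basket P56 arrays, against 6.71 to 7.65 at P28/P35 (2.05 ± 0.42), and averaged 6.64 in Purkinje P56 arrays, against 7.98 at P28/P35 (-1.35 ± 0.31). The kinase gene Stk32a had 8.07 and 7.76, against 5.86 to 6.65 (1.77), and changed by -1.59 ± 0.27 in Purkinje cells. Camk2a, the alpha subunit of calcium/calmodulin kinase II, had 10.35 and 8.59, against 6.32 to 7.61 (2.75 ± 0.29), while its Purkinje difference of -0.52 did not pass the test (adjusted p = 0.0688). The largest Purkinje changes, in Slc45a3 (3.82), Zfp383 (3.52), Gcnt2 (3.15), Tpx2 (2.55) and Nrn1 (2.22), had Stellate/Basket differences of 0.61, 0.51, 1.73, -0.18 and 0.50, of which only Gcnt2, a branching enzyme of glycans, was called. Of the 5 leading Purkinje falls, Zfy2, Pdxdc1, Sbno2, Clstn1 and Apcdd1, only Clstn1, a calsyntenin, was called in Stellate/Basket arrays, and in the same direction (-2.29, against -1.68 in Purkinje arrays). With averaged probe sets the Purkinje calls of Gcnt2 (0.23), Pdxdc1 (-0.01), Sbno2 (-0.55), Clstn1 (-1.0) and Apcdd1 (-0.54) were lost, as were those of the difference between the changes for Bcl11a (0.82) and Camk2a (0.93).

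**Figure D5:**
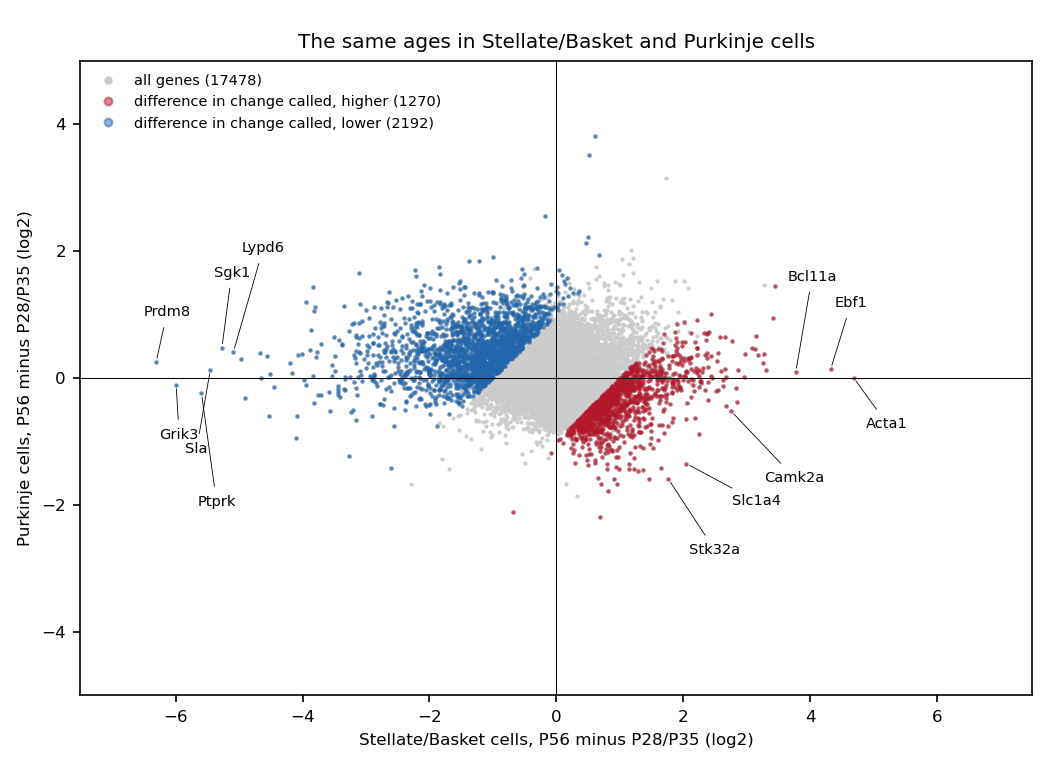
Log2 difference of P56 against P28/P35 in Stellate/Basket cells (x axis) and in Purkinje cells (y axis), 1 point per gene, with the genes whose changes differed between the cell types in red (1270, higher in Stellate/Basket) and blue (2192, lower). The points spread further along the x axis than along the y axis, and the 12 labelled genes lie far from the diagonal.

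The genes called at P56 were set against the cell type differences at P14 and P21, from 14 arrays outside the 8 compared. There 1136 genes (6.5%) had their higher level in Purkinje cells and 1157 (6.62%) in Stellate/Basket cells. These arrays enter the same fit, filter and choice of probe set. Both sets of calls share 1 estimate of each gene's spread, so they are not independent. Of the 788 genes higher at P56, 295 (37.4%) were Purkinje genes at P14/P21, 26% of the 1136, while 37 were Stellate/Basket genes and 456 were neither. Replicate 1 was above replicate 3 in 256 of the 295, in 12 of the 37 and in 209 of the 456. Over all 17478 genes it was above at 7451. Of the 1507 genes lower at P56, 570 (37.8%) were Stellate/Basket genes at P14/P21, 49.3% of the 1157, while 30 were Purkinje genes and 907 were neither. The shares are descriptions, and no enrichment was tested.

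Some genes divided the P56 arrays outright. Tex10 was at 10.79 in replicate 1 and 4.63 in replicate 3, against 9.56 to 10.59 at P28/P35, the noncoding RNA gene Snhg11 at 11.40 and 5.24, against 10.32 to 11.49, and the transcription factor gene Mef2a at 10.68 and 4.81, against 10.03 to 11.20. At these, as at Gria2, replicate 1 was near or inside the earlier range and replicate 3 near the low end of the scale. Klhl4, a Purkinje gene at P14/P21 (log2 5.88), was at 10.51 in replicate 1 and 4.63 in replicate 3, against 4.17 to 6.27. In the other direction Abtb2 was at 4.5 in replicate 1 and 10.26 in replicate 3, against 7.87 to 9.84, Zfp799 at 5.43 and 9.75, Vps54 at 5.76 and 9.57, Nedd1 at 5.87 and 9.38, and Timm21 at 5.56 and 8.87. These 10 genes were chosen for the distance between the P56 arrays, which is a description with no test.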

How the data were processed

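Expression was measured in 42 columns of Purkinje and Stellate/Basket cells sorted by hand. Values were used as the authors deposited them, on a log2 scale, for 45101 probe sets. GCRMA and R 2.9.1 appear in the submitters' processing notes, with no role or order. This background correction can bring dim probe sets to a common low end, so folds against such values are uncertain. The averaged columns, P56 replicate 2 and P35 replicate 3, were recognised within 1e-08 and left out, leaving 40 arrays.

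Of the probe sets, 34958 with 1 gene symbol were used, while 932 with several and 9211 with none were not. The probe set with the highest mean stood for its gene, and 17478 genes passed a filter of log2 over 5 on 3 arrays or more. Probe sets of a gene can disagree: of 123 named genes with more than 1, 45 had a probe set with the other sign. In 2 of them (Plxna2 and Nr4a2) this was by over 1 on the log2 scale. Differences given are those of the chosen probe set, and others of the same gene can have changed less. A linear model of the 12 groups of cell type and age was fitted to all 40 arrays (R 4.3.3, limma 3.58.1), with Benjamini-Hochberg adjustment over all genes. Calls needed an adjusted p under 0.05 and a log2 difference of at least 1. The P28/P35 mean weights its 6 arrays equally. The shared spread assumes that the 2 arrays at P56 vary like the other groups, but they lay further apart. Array weights were 0.177 for each P56 array, against 0.65 to 1.01 for the P28/P35 arrays. SEs and adjusted p therefore understate the uncertainty at genes where the P56 arrays differ. Replicates are labelled as biological. Promoter windows came from RefSeq (GRCm38.p6). Python 3.11.15 with matplotlib 3.10.9 made the plots.

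The comparison, the 40 gene lists (559 genes, 499 tested) and the naming rule were chosen with earlier results of these data known. Named were the 15 largest called differences in each direction in which the groups did not overlap, the 6 largest in each direction for the difference in change between the cell types, and the 5 largest in each direction for P35 against P28, for Purkinje P56 and for the distance between the P56 arrays. Of each list up to 4 called members were named, or the 2 largest differences where fewer than 2 were called, with every measured interneuron, Purkinje and astrocyte marker, Gad1, Slc32a1, Xist and the Y-linked genes. Symbols of clone or predicted locus names were passed over. Replicate numbers do not pair the samples: in the 5 same-numbered pairs of the 8 arrays, deviations from the group means correlated at -0.12 to 0.03. Alternatives covered filters, probe set averaging, variance model, array weights, a replicate block, scaling, thresholds, the arrays entering the fit and each array left out. The 90th percentile and the level of Xist as covariates were added after the data were seen.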

Additional observations from a re-analysis of the deposited data

Results flagged for a closer look

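Within the 6 P28/P35 arrays, 1 array lay far from the others at 23 of 168 named genes, where chance gives about 1 in 20. In 19 of these it was P35 replicate 1. Genes that fell at P56, among them the interneuron markers Kit and Tfap2b, were low there: Kit (9.77, against 10.70 to 10.87), Tfap2b (8.61, against 9.53 to 9.78), Grik3 (9.58, against 10.57 to 10.81), Sla (9.96, against 11.20 to 11.63), Synpr (6.66, against 8.65 to 9.80) and Lin7a (10.88, against 11.17 to 11.29), each value being that of P35 replicate 1 and the range that of the other 5 arrays. Synaptic and GABA genes were low in the same array, namely Sv2a (10.91, against 11.41 to 11.68), Snap25 (10.65, against 11.23 to 11.46) and Abat (8.83, against 10.13 to 10.77), as were Zfp799 (5.13, against 8.37 to 9.70), Calb1 (9.23, against 10.55 to 11.09), Ctss (5.28, against 7.49 to 8.77), Bcan (8.36, against 9.42 to 9.84) and Pfkp (8.97, against 10.28 to 10.68). High in P35 replicate 1 were Alas2 (6.74, against 5.04 to 5.28), Uty (5.22, against 4.96 to 5.05), Mt2 (12.92, against 11.81 to 12.17), Mt1 (11.62, against 10.63 to 10.81) and Crym (6.44, against 5.17 to 5.38). P35 replicate 2 stood apart at Btbd11 (12.26, against 11.78 to 11.91), Glrb (10.95, against 10.45 to 10.64) and Xist (7.55, against 12.29 to 12.54), and P28 replicate 2 at Smpx (6.67, against 4.48 to 5.10). For Kit, Grik3, Sla, Synpr, Lin7a and Tfap2b both P56 arrays lay below P35 replicate 1 as well.

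The change from P28/P35 to P56 differed between arrays labelled Stellate/Basket and Purkinje arrays by the interaction test at the 12 leading genes given above. The differences, Stellate/Basket minus Purkinje change, were Acta1 4.69, Ebf1 4.19, Bcl11a 3.68, Slc1a4 3.40, Stk32a 3.36 and Camk2a 3.27, and Prdm8 -6.56, Grik3 -5.89, Sgk1 -5.75, Sla -5.58, Lypd6 -5.50 and Ptprk -5.35. Slc1a4 and Stk32a rose at P56 in Stellate/Basket arrays and fell in Purkinje arrays, whereas at the other 10 the Purkinje change did not pass the test.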

How the results depend on the processing

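The P56 arrays limit the comparison. Array weights called 146 genes higher and 395 lower in place of 788 and 1507, the 8 arrays alone 457 and 850, and averaging the probe sets of each gene 505 and 865, while a log2 difference of at least 2 left 100 and 360. Leaving out 1 array at a time gave 778 to 1281 genes higher and 1060 to 2307 lower, both extremes without a P56 array except the lowest of the first (without P28 replicate 1). After quantile normalization 42.4% of calls were higher at P56, against 34.3% as deposited. The 90th percentile as a covariate gave 918 and 1237 and Xist as a covariate 792 and 1515. For the difference in change between the cell types (1270 higher and 2192 lower), the stricter filter gave 841 higher, array weights 700 and 853, a log2 difference of at least 2 gave 137 and 668, the 90th percentile 1068 lower, and leaving out 1 array 1237 to 1888 higher and 1400 to 2938 lower. The share higher was 36.7% as deposited, 28.1% after centring and 49.9% after quantile normalization. For P35 against P28, averaged probe sets called 39 higher and 75 lower, array weights 99 lower and quantile normalization 120 higher. For Purkinje P56 averaged probe sets called 180 higher and 32 lower, centring 566 higher and quantile normalization 201 higher, with a share higher of 81.4% as deposited, 90.9% after centring and 67% after quantile normalization. For Purkinje against Stellate/Basket cells at P14/P21 averaged probe sets called 724 lower. Of 122 named genes called at P56, 44 were called under all 25 alternatives. The stricter thresholds were not among these 25. Of 4567 values of named genes under an alternative, 4197 kept their direction and side of the threshold, 260 lost and 68 gained a call, and 11 that were called in either fit changed sign, each when a P56 array was left out. Another 31, called in neither fit, changed sign, 11 without a P56 array (among them Abtb2, Zfp799, Timm21, Foxp2, Eif2s3y and Gfap) and 20 under other alternatives, 10 of these for Xist. Without replicate 3 and without replicate 1, in that order, the P56 difference was 0.18 and -2.25 for Eno2, 0.019 and -4.92 for Gabrb2, 0.16 and -5.91 for Gria2, 0.12 and -5.75 for Mef2a, -0.46 and 3.05 for Nedd1, 0.36 and -5.80 for Snhg11, 0.70 and -5.45 for Tex10, 2.27 and -0.022 for Ifit1, 5.18 and -0.70 for Klhl4, 2.49 and -0.17 for Tek, and -1.94 and 1.86 for Vps54. With a replicate block, whose numbers do not pair the samples, 791 genes were called higher and 1475 lower, and 3 named genes lost their call. The causes were not tested.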
